A study of Musa balbisiana with 10 samples.

Results

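Ripening without added ethylene was examined in fruit pulp of the B genome banana *Musa balbisiana*, cultivar Klutuk Wulung (BB group), by comparing 3 control libraries of day 7 (K7 A, B and C) with 2 control libraries of day 1 (K1 A and B). These 5 of the 10 RNA-seq libraries of the series were chosen by the treatment and day in their labels and not by any measured value. Control fruits received no ethylene. The other 5 libraries came from fruits of the same cultivar exposed to 100 µl/L of ethylene gas in a glass container, sampled on day 1 (E1 A and C) and day 7 (E7 A, B and C). K1 A, K7 A and E7 A were sequenced as single reads and the other 7 libraries as read pairs, so each day of the control fruits holds 1 single-end library. The study calls the replicates biological, but neither its text nor the labels say whether they came from separate fruits or bunches, and the p-values measure the spread between these libraries.

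Banana is a climacteric fruit. Its ripening begins with a burst of ethylene made by the fruit itself through the precursor ACC, and the hormone then switches on the enzymes that turn starch into sugars and loosen the cell wall. Bananas are picked green, before this burst, and fruits with B genomes are known to ripen slowly, so untreated fruits sampled several days apart show how far the pulp transcriptome moves by itself.

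Abundance was given in FPKM, the number of sequenced fragments scaled to transcript length and to the mapped fragments of the library, for loci that Cufflinks assembled in each library separately. Because the assembled ends of a locus differ between libraries, loci of at least 300 bp that overlapped by at least 1 base in any of the 10 tables were joined into 1 region and their FPKM summed in each library. A region was tested when it had a value in all 10 tables and a mean of at least 1 FPKM, which left 16811 regions. Identifiers beginning with Mba are those of the deposited tables, and identifiers beginning with C4D60 are locus tags of the RefSeq gene table of the BananaB_V1 assembly, used where a region covered at least 50% of that gene. On chromosomes 7 and 10 the 2 sets of coordinates did not match, and regions there without an Mba identifier are given by position. Neither source pairs an identifier with a gene name or product, so ripening enzymes and pulp markers could not be looked up, the tissue label was not checked against markers, and no role is given to any gene below.

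The 5 control libraries were close to each other in their overall measures. They listed 16255 to 16677 regions at 1 FPKM or more, with 16541.5 ± 192 (SD, n = 2) on day 1 and 16296.0 ± 35.9 (SD, n = 3) on day 7 (exact permutation test, two-sided, p = 0.2, as small as this test can give with 2 against 3 libraries). The 100 most abundant regions held 24.0% ± 2.32 (SD, n = 2) of the FPKM on day 1 and 24.8% ± 1.66 (SD, n = 3) on day 7 (exact permutation test, p = 0.6). Neither day nor layout alone ordered the distances between the libraries. The median difference between K1 A and K1 B over the tested regions was 0.35 on the log2(FPKM + 1) scale, against 0.30 between K1 B and K7 B, 0.29 between K1 B and K7 C and 0.27 between K7 B and K7 C. K1 B was therefore nearer to the paired-end libraries of day 7 than to the single-end library of its own day. K7 A went the other way. It was nearer to the paired-end libraries of its own day (0.31 to K7 B and 0.32 to K7 C) than to K1 A (0.34), which shares its layout.

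Of the 16811 regions, 220 (1.31%) differed between day 7 and day 1 in control fruits at an adjusted p under 0.05 (limma on log2(FPKM + 1), Benjamini-Hochberg adjustment over all regions), while 2117 had an unadjusted p under 0.05. Far more of them fell than rose. The 44 regions that rose (0.262% of those tested) had a median log2 fold change of 1.18, from 0.71 to 2.65, and their median level went from 8.08 FPKM on day 1 to 22.5 FPKM on day 7. The 176 regions that fell (1.05%) had a median log2 fold change of -1.53, from -0.74 to -3.55, and their median level went from 15.5 to 4.11 FPKM. The median log2 fold change over all tested regions was -0.02. Among the regions that fell, 164 had a log2 fold change of 1 or more in size and 31 of 2 or more, against 31 and 2 among those that rose. The day 7 mean was under 1 FPKM in 42 of the regions that fell.

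**Figure D1:**
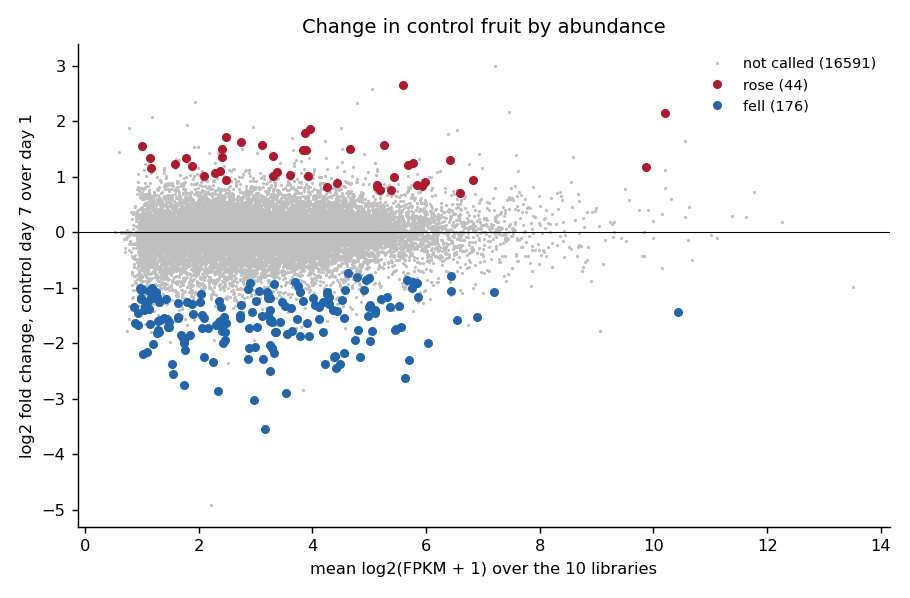
Change between control day 7 and control day 1 (vertical axis, log2 fold change on the log2(FPKM + 1) scale) against the mean level over the 10 libraries (horizontal axis, log2(FPKM + 1)) for the 16811 tested regions, each a point. The 176 regions that fell and the 44 that rose are coloured, and both kinds lie at low as well as high levels.

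All 220 regions had day 7 libraries that did not overlap the day 1 libraries, and all changed the same way in the single-end libraries (K7 A against K1 A) as in the paired-end libraries (the mean of K7 B and C against K1 B). Without overlap were also 25.8% of all tested regions (11.4% higher and 14.4% lower on day 7), and 58.5% had the same sign in both layouts. In 127 of the 220 regions, 23 that rose and 104 that fell, each control library listed a single locus, so the confidence bounds that Cufflinks gives for each value could be compared. The bounds of all day 7 libraries lay apart from those of both day 1 libraries in 22 of these 23 regions and in 103 of these 104, against 9.78% of the 5438 tested regions with a single locus. The regions were called from the same values that the bounds surround, so these counts only describe the list.

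**Figure D2:**
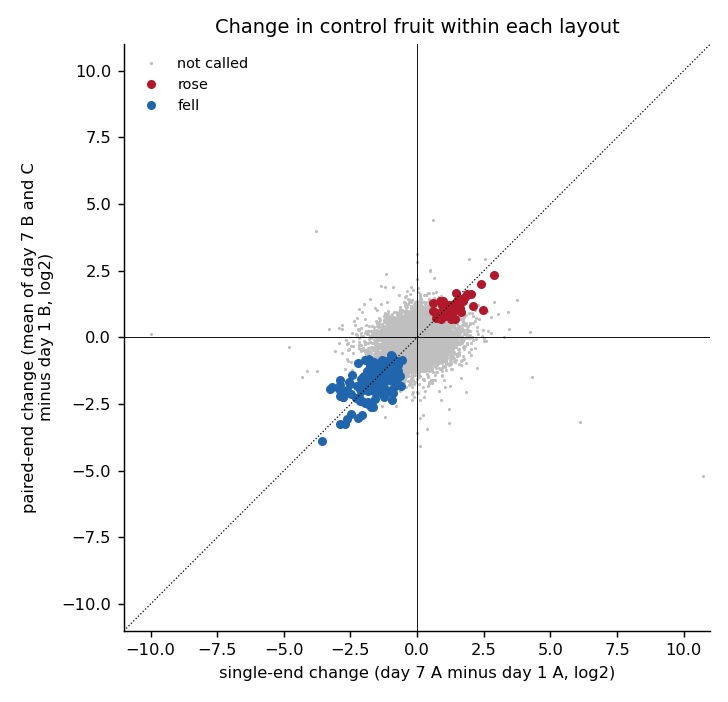
Change from day 1 to day 7 in single-end control libraries (horizontal axis, log2 difference of K7 A and K1 A) and in paired-end control libraries (vertical axis, log2 difference of the mean of K7 B and C and K1 B), each point a tested region. The dotted line marks equal change, and the regions that rose lie in the upper right corner and those that fell in the lower left.

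How many regions passed the test rested on single libraries and on the ethylene-treated fruits, which shared their estimate of the spread with the control fruits. The count was 124 without K1 A, 142 without K7 A, 111 without K7 C, 137 without E1 A, 136 without E1 C, 142 without E7 B and 132 without E7 C, and the regions that fell outnumbered those that rose in each. With the 5 control libraries alone in the fit 3 regions passed, all of them lower on day 7, and 1541 had an unadjusted p under 0.05. These 3 regions were C4D60_Mb05t12060, Mba06_g21540.v1.1 and the region of Mba11_g23340.v1.1 and Mba11_g23350.v1.1, each with an adjusted p of 0.0485 in that fit (limma).

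The largest rise on the log2(FPKM + 1) scale was that of C4D60_Mb05t21820 (chromosome 5, 34353561 to 34355627). It was listed at 12.9 FPKM in K1 A and 21.9 in K1 B, and at 102, 103 and 129.8 FPKM in K7 A, B and C. All day 7 libraries lay far above both day 1 libraries, with means of 17.4 ± 6.37 (SD, n = 2) and 112 ± 15.7 FPKM (SD, n = 3), a 6.43-fold rise (log2 fold change 2.65, SE 0.22, limma adjusted p = 0.0011). In treated fruits the region also rose over the same days, from 12.9 and 12.5 FPKM to 86.4, 100.3 and 97.8 FPKM (log2 fold change 2.81, adjusted p = 2.9e-05, limma), and the difference between the 2 changes was 0.15 (SE 0.31, interaction adjusted p = 0.794).

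The most abundant of the strongly rising regions lay on chromosome 7 from 29429361 to 29430796 and has no identifier. Its control values were 194 and 212 FPKM on day 1 and 1036, 845 and 842 FPKM on day 7. The 4.47-fold rise of the means, from 203 ± 12.9 (SD, n = 2) to 908 ± 111 FPKM (SD, n = 3), exceeded the spread within either day (log2 fold change 2.15, SE 0.18, limma adjusted p = 0.0011). In treated fruits the same region was already at 4009 and 3743 FPKM on day 1 and fell to 2463, 2110 and 2096 FPKM on day 7 (log2 fold change -0.80, adjusted p = 0.00898, limma). The level in control fruits on day 7 stayed below every treated library of either day.

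C4D60_Mb02t02420 (chromosome 2, 15731082 to 15735572) was at 7.42 and 8.36 FPKM on day 1 and at 33.0, 23.8 and 32.9 FPKM on day 7. In K7 A 1.45 FPKM of this came from a further locus of 500 bp. The region rose 3.79-fold (log2 fold change 1.78, SE 0.19, limma adjusted p = 0.00278). In the paired-end libraries alone, as in the control libraries alone, its adjusted p was above 0.05, with 0.0662 the highest over its alternatives. In treated fruits the region rose from 3.85 and 4.19 to 20.9, 18.4 and 18.6 FPKM (log2 fold change 2.01, adjusted p = 8.73e-05, limma).

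Mba04_g03690.v1.1 (chromosome 4, 3209817 to 3212640) rose from 2.19 and 4.02 FPKM to 7.77, 18.3 and 12.2 FPKM. Its day 7 libraries were spread widely for their mean (12.8 ± 5.30, SD, n = 3), and the call (log2 fold change 1.71, SE 0.32, limma adjusted p = 0.0361) held under 14 of 28 alternatives, with the adjusted p reaching 0.232. It was lost without K1 A, K1 B, K7 B, K7 C or any of the 5 ethylene-treated libraries. In treated fruits the region was close to 0 on day 1, at 0.189 and 0.104 FPKM, and reached 7.21, 7.46 and 8.11 FPKM on day 7, below or near the lowest control library of that day.

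The region on scaffold 7 from 203269 to 209854 showed how the joining of loci enters a value. Its sums were 3.68 and 7.24 FPKM on day 1 and 16.2, 27.2 and 22.5 FPKM on day 7 (log2 fold change 1.86, SE 0.27, limma adjusted p = 0.0111). The longer locus of the region, of 4744 to 5631 bp, was listed at 3.68 and 4.39 FPKM on day 1 and at 3.83, 4.93 and 3.89 FPKM on day 7. The rise lay in a short second locus of 362 to 381 bp, at 12.3, 22.3 and 18.6 FPKM on day 7, where K1 B listed a locus of 1328 bp at 2.86 FPKM and K1 A none apart from the longer one. With loci of at least 500 bp the region changed by -0.26 (SE 0.25, adjusted p = 0.719, limma), and without K1 A it did not pass the test.

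**Figure D3:**
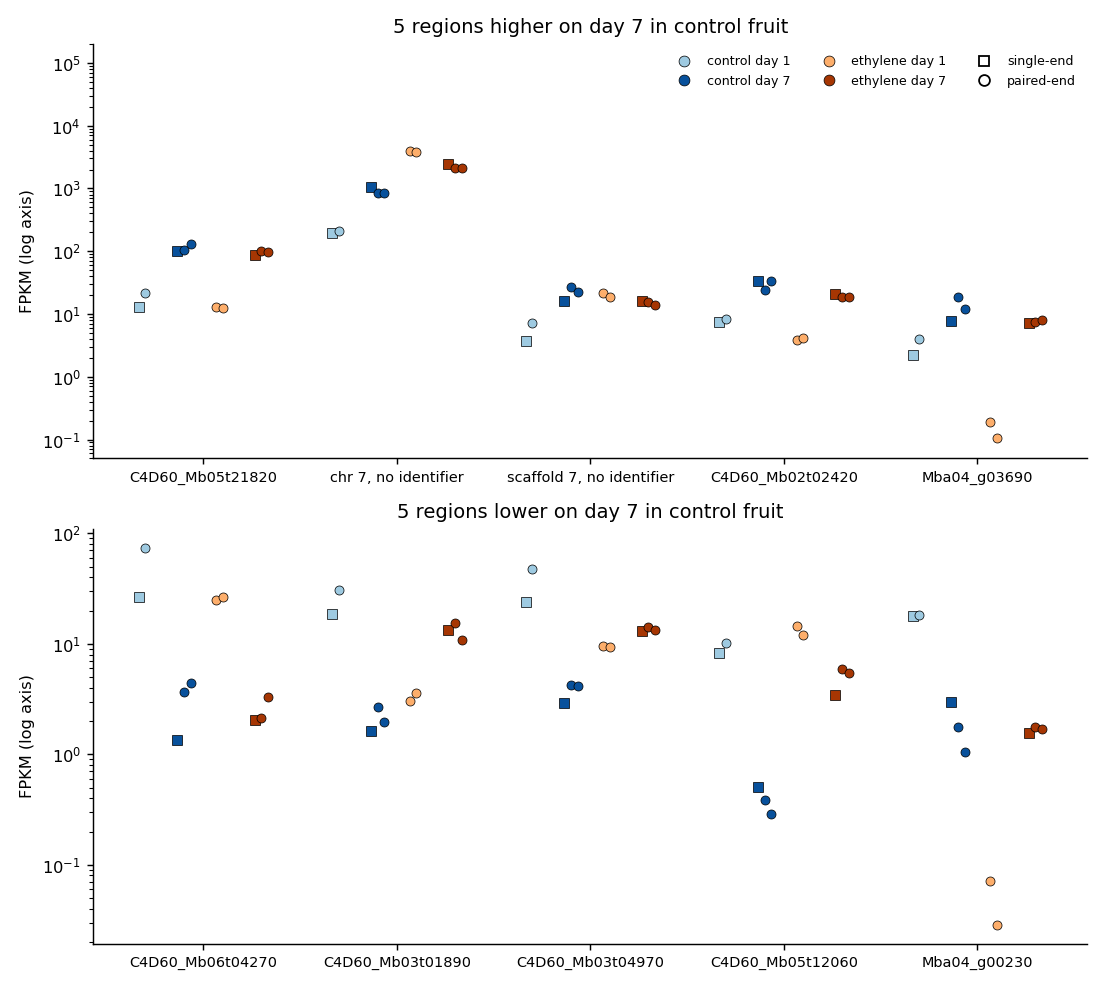
FPKM of each of the 10 libraries (vertical axis, log scale) for the 5 regions that rose and the 5 that fell by the largest log2 fold change in control fruits, coloured by group, with squares for single-end and circles for paired-end libraries. Only regions without overlap of the control days were chosen, so the dark blue points of control day 7 lie apart from the light blue points of control day 1. The ethylene-treated libraries move the opposite way in C4D60_Mb03t01890, Mba04_g00230.v1.1 and the region of chromosome 7. They also do so in C4D60_Mb03t04970 and the region of scaffold 7, where the treated change was not called.

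The other 7 named rises had log2 fold changes of 1.49 to 1.62. Mba06_g03590.v1.1 and Mba06_g03600.v1.1 lie in a region of chromosome 6 (3040656 to 3052131) that rose from 16.0 and 20.6 FPKM to 50.7, 55.9 and 52.0 FPKM (log2 fold change 1.49, SE 0.16, limma adjusted p = 0.00281). Its rise was larger in treated fruits, from 5.89 and 5.58 FPKM to 31.3, 35.7 and 34.4 FPKM (interaction 0.88, adjusted p = 0.0326, limma). Most of this level came from the locus of Mba06_g03590.v1.1, described below. Mba05_g11560.v1.1 (chromosome 5, 8842359 to 8844632) rose from 6.92 and 7.05 to 24.9, 16.1 and 24.3 FPKM. Both of these calls held under 26 alternatives, of 27 and 28.

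Mba01_g26750.v1.1 (chromosome 1, 20833138 to 20834346) rose from 1.69 and 1.36 FPKM to 8.22, 5.14 and 6.42 FPKM. Mba01_g21380.v1.1 (chromosome 1, 16512841 to 16516356) rose from 8.60 and 17.3 FPKM to 26.3, 43.8 and 49.8 FPKM, while in treated fruits it fell from 109.7 and 104 FPKM to 35.1, 37.2 and 36.4 FPKM. After these opposite changes the day 7 ranges of control and treated fruits overlapped. The call of Mba01_g21380.v1.1 in control fruits was lost without K1 A, K7 B, K7 C or any 1 ethylene-treated library, and that of Mba01_g26750.v1.1 without K1 A, K1 B or K7 C. A region of chromosome 4 (31828400 to 31837457) with Mba04_g25490.v1.1 and Mba04_g25500.v1.1 rose from 0.134 and 0.303 FPKM to 2.54, 2.29 and 2.88 FPKM. Its mean was 11.7-fold higher, with a log2 fold change of 1.55 on the scale with 1 FPKM added. Much of the day 7 sum came from a locus of 424 to 596 bp that each day 7 library listed and neither day 1 library did. The long locus itself was listed at 0.104 and 0.303 FPKM on day 1 and at 0.776, 0.547 and 0.700 FPKM on day 7.

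The remaining 2 named rises were the least steady. The region of Mba03_g03020.v1.1 and C4D60_Mb03t03010 lay on chromosome 3 (2219081 to 2224050). It summed to 2.41 and 4.54 FPKM on day 1 and to 18.1, 10.7 and 9.77 FPKM on day 7. Most of this came from a locus of 4884 bp, at 1.65 and 3.77 FPKM on day 1 and 16.9, 9.12 and 8.49 FPKM on day 7. The call of the region held under 8 of 27 alternatives. The region of Mba04_g28980.v1.1 lay on chromosome 4 (34812689 to 34814562). It summed to 1.83 and 2.17 FPKM on day 1 and to 11.1, 5.47 and 6.87 FPKM on day 7. Most of the day 7 sum came from a locus of 414 bp, at 10.2, 4.34 and 6.08 FPKM. The call of the region held under 9 of 25. The first call was lost without any 1 of the 10 libraries, and the second without any 1 of them except K7 B. In both the single-end change was the larger, 2.49 against 1.02 on the log2 scale for Mba03_g03020.v1.1 and 2.09 against 1.17 for Mba04_g28980.v1.1.

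Among the falls, C4D60_Mb06t04270 (chromosome 6, 3639979 to 3641774) had the largest log2 fold change on the log2(FPKM + 1) scale, although regions closer to 0 on day 7 fell by a larger ratio of means. It was listed at 26.7 and 73.6 FPKM in K1 A and B and at 1.34, 3.64 and 4.41 FPKM in K7 A, B and C. The day 1 libraries differed widely from each other, yet both lay far above all day 7 libraries, and the mean went from 50.2 ± 33.2 (SD, n = 2) to 3.13 ± 1.60 FPKM (SD, n = 3), a level 16.0-fold lower (log2 fold change -3.55, SE 0.44, limma adjusted p = 0.00511). Treated fruits showed a fall as well, from 25.2 and 26.6 FPKM to 2.05, 2.13 and 3.30 FPKM, and the difference between the changes was 0.59 (SE 0.63, interaction adjusted p = 0.593, limma).

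C4D60_Mb03t01890 (chromosome 3, 1480928 to 1484109) fell from 18.6 and 30.6 FPKM to 1.63, 2.70 and 1.95 FPKM, an 11.8-fold lower mean (log2 fold change -3.02, SE 0.26, limma adjusted p = 0.00137). Its libraries in treated fruits ran the other way, with 3.01 and 3.58 FPKM on day 1 and 13.3, 15.5 and 10.8 FPKM on day 7 (log2 fold change 1.71, adjusted p = 0.00127, limma). C4D60_Mb03t04970 (chromosome 3, 3546052 to 3548890) fell from 24.1 and 47.5 FPKM to 2.89, 4.20 and 4.12 FPKM (log2 fold change -2.89, SE 0.27, limma adjusted p = 0.00163), while the treated libraries were listed at 9.60 and 9.35 FPKM on day 1 and at 12.9, 14.2 and 13.3 FPKM on day 7. In both regions the control libraries of day 7 lay below all treated libraries.

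C4D60_Mb05t12060 (chromosome 5, 9250596 to 9252545) came close to 0 in control fruits. It was listed at 8.24 and 10.2 FPKM on day 1 and at 0.511, 0.383 and 0.291 FPKM on day 7, a 23.3-fold lower mean (log2 fold change -2.87, SE 0.24, limma adjusted p = 0.0011). The call held under all 28 alternatives. Treated fruits fell from 14.5 and 12.04 FPKM to 3.44, 5.93 and 5.47 FPKM, a smaller change (interaction 1.59, adjusted p = 0.0133, limma).

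Mba04_g00230.v1.1 (chromosome 4, 346212 to 348223) fell from 17.7 and 18.4 FPKM to 3.00, 1.77 and 1.05 FPKM (log2 fold change -2.75, SE 0.26, limma adjusted p = 0.00164). The day 1 libraries agreed closely, and the day 7 libraries were all lower by far more than their spread (18.1 ± 0.475, SD, n = 2, against 1.94 ± 0.989 FPKM, SD, n = 3). On day 7 treated fruits lay within the range of the control fruits, at 1.55, 1.75 and 1.68 FPKM, but they had been close to 0 on day 1, at 0.0709 and 0.0286 FPKM.

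The other 7 named falls had log2 fold changes of -2.37 to -2.63. A region without an identifier on chromosome 7 (12829156 to 12831087) fell from 47.1 and 77.9 FPKM to 7.59, 13.4 and 6.90 FPKM, where treated libraries were listed at 89.9 to 165 FPKM on both days. The region of Mba11_g23340.v1.1 and Mba11_g23350.v1.1 (chromosome 11, 28542849 to 28546914) fell from 90.5 and 78.8 FPKM to 12.3, 16.8 and 15.2 FPKM (log2 fold change -2.45, SE 0.18, limma adjusted p = 0.0011), and its call held under all 27 alternatives. It was low in treated fruits throughout, at 8.33 and 9.52 FPKM on day 1 and 19.6, 19.5 and 16.3 FPKM on day 7, so that the ranges of control and treated fruits were far apart on day 1 and overlapped on day 7. Most of the control level came from the short locus of Mba11_g23350.v1.1 described below.

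The region of Mba08_g11240.v1.1 and C4D60_Mb08t11250 (chromosome 8, 9266436 to 9273385) fell from 18.5 and 31.7 FPKM to 3.63, 3.76 and 3.00 FPKM. Much of its day 1 sum, 11.9 and 23.2 FPKM, was the locus of C4D60_Mb08t11250, which is described below. Mba03_g17290.v1.1 (chromosome 3, 25584552 to 25586169) fell from 11.8 and 5.46 FPKM to 0.334, 0.572 and 0.773 FPKM. Both rose in treated fruits, the joined region of chromosome 8 from 5.17 and 6.72 FPKM to 12.6, 13.9 and 11.2 FPKM and Mba03_g17290.v1.1 from 0.348 and 0.213 FPKM to 4.10, 3.18 and 3.30 FPKM. In K1 A 8.41 FPKM of the Mba03_g17290.v1.1 region came from a locus of 380 bp that no other control library listed, and its main locus alone was listed at 3.35 FPKM there and 5.46 FPKM in K1 B, still above all day 7 libraries.

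Mba03_g08040.v1.1 (chromosome 3, 6001737 to 6002318) fell from 6.31 and 5.76 FPKM to 1.13 FPKM in K7 B and 0.174 in K7 C, and it was listed at 0 in K7 A. The region of C4D60_Mb02t04590 and C4D60_Mb02t04600 (chromosome 2, 18761865 to 18769557) fell from 50.2 and 63.6 FPKM to 5.95, 10.7 and 15.8 FPKM. Its long locus of 7635 to 7637 bp was listed at 5.38 and 3.58 FPKM on day 1 and at 5.95, 4.26 and 2.80 FPKM on day 7, and the fall lay in a shorter locus of 825 to 1198 bp inside it, listed at 44.8 and 60.0 FPKM on day 1, at 0 in K7 A and at 6.45 and 11.4 FPKM in K7 B and C. The sum of 5.95 FPKM in K7 A was thus the long locus alone, and a listed 0 can be a failed estimate where loci overlap. The region of Mba05_g06740.v1.1 and C4D60_Mb05t06730 (chromosome 5, 5273634 to 5276534) fell from 100.5 and 70.9 FPKM to 25.4, 8.16 and 17.7 FPKM. Most of this was a locus at 96.9 and 66.2 FPKM on day 1 and at 23.2, 6.87 and 17.1 FPKM on day 7. The call of the region held under 16 of 27 alternatives. The last 2 calls were each lost without K1 A and without K1 B, that of Mba05_g06740.v1.1 also without K7 C, E1 A, E1 C or E7 B, and that of Mba03_g08040.v1.1 without K1 A.

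Some abundant transcripts were among the called regions. Of the 220 regions, 10 that fell had a mean of at least 100 FPKM on day 1 and 6 that rose had one on day 7. Each direction was thus counted on the day of its higher level. On the other day 2 of the falls and 2 of the rises reached that mean. Of the 462 tested regions with a mean of at least 100 FPKM over all libraries, 1.95% were called, against 1.31% of all tested regions. The following 5 regions were chosen from the 10 falls and 6 rises after their values were seen. Mba01_g29340.v1.1 (chromosome 1, 26985075 to 26986369) was listed at 2638 and 3470 FPKM on day 1 and at 927, 999 and 1488 FPKM on day 7, the only call among the 10 regions with the highest means over the 5 control libraries (log2 fold change -1.44, SE 0.23, limma adjusted p = 0.0186). Mba07_g14120.v1.1 (chromosome 7, 12368979 to 12373338) fell from 199 and 189.9 FPKM to 54.7, 77.4 and 63.6 FPKM (log2 fold change -1.57, limma adjusted p = 0.00278). C4D60_Mb03t02120 (chromosome 3, 1649471 to 1650747) fell from 132 and 191 FPKM to 43.7, 82.6 and 66.8 FPKM, whereas treated libraries went from 3.85 and 3.77 FPKM to 68.3, 63.8 and 62.5 FPKM. The day 7 range of the treated fruits thus lay within that of the control fruits.

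Mba10_g13890.v1.1 (chromosome 10, 31616193 to 31620276) rose from 222 and 287 FPKM to 508, 593 and 618 FPKM (log2 fold change 1.17, SE 0.22, limma adjusted p = 0.0392), and in treated fruits it dropped from 5800.4 and 7721 FPKM to 934, 1213 and 849.7 FPKM. Mba08_g30320.v1.1 (chromosome 8, 42188306 to 42190362) rose from 40.3 and 64.4 FPKM to 98.4, 95.1 and 114 FPKM, and in treated fruits from 3.47 and 3.50 FPKM to 76.5, 71.6 and 70.4 FPKM. The region with the highest mean over the control libraries, C4D60_Mb06t27070 (chromosome 6, 32928189 to 32932292), had day 7 libraries below both day 1 libraries, at 3643, 5262 and 5295 FPKM against 10354 and 8302 FPKM, but did not pass the test (log2 fold change -0.99, adjusted p = 0.242, limma).

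Regions at all levels were called. The called share was 1.31% of the regions with a mean of 1 to 5 FPKM, 1.05% from 5 to 20 FPKM, 1.80% from 20 to 100 FPKM and 1.95% at 100 FPKM or more. Falls outnumbered rises 60 to 9, 64 to 16 and 48 to 14 in the lower 3 classes, and 5 regions rose and 4 fell in the highest. Called regions were shorter than the others, with a median length of 4531 bp for rises and 3369 bp for falls against 6788 bp over all tested regions, and 48.6% of them held an Mba identifier against 34.5% of all. Along the chromosomes the called share ran from 0.664% on unplaced scaffolds and 0.696% on chromosome 2 to 1.85% on chromosome 7. On chromosome 5, 25 of 1490 tested regions fell and 2 rose (1.81% called). Chromosome 11 had a similar split, with 16 of 1217 that fell and 1 that rose (1.40% called).

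Called regions were next to each other among the tested regions in 9 cases, with gaps of 84 to 135330 bp. In 8 of these both neighbours changed the same way, where 176 of all 220 called regions fell. How many such pairs the called share alone would give was not tested. Mba01_g27020.v1.1 and Mba01_g27030.v1.1 lie 84 bp apart on chromosome 1 and had log2 fold changes of -1.58 and -1.80. C4D60_Mb05t12060 has the falling C4D60_Mb05t12070 863 bp away (log2 fold change -1.79), C4D60_Mb03t04970 has the falling Mba03_g04980.v1.1 3207 bp away (-1.70), and Mba03_g08040.v1.1 has the falling Mba03_g08050.v1.1 4196 bp away (-1.65). Whether such neighbours share reads was not tested. The only pair with opposite changes lay on chromosome 7, where the region from 9135509 to 9141271 rose by 0.77 and that from 9144089 to 9147317 fell by 2.23 on the log2 scale.

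Regions with a single locus in every table were also tested alone, a choice made after the data had been seen. Of these 4594 regions 288 passed (6.27%), with 87 that rose and 201 that fell, and 118 of the 288 were among the 220. Loci whose coordinates were identical in all 10 tables gave a further view in which nothing is joined. Of 2095 such loci with a mean of at least 1 FPKM, 99 passed (4.73%), and of these 35 rose (1.67%) and 64 fell (3.05%), with median log2 fold changes of 0.83 and -1.24. Libraries of the 2 days did not overlap in any of the 99, against 30.4% of all such loci (15.2% higher and 15.2% lower on day 7), and 400 had an unadjusted p under 0.05. Inside a called region lay 38 of the 99, all with the direction of that region. The value of a locus is part of the sum of its region, so a shared direction was largely built in. The Cufflinks bounds of the days lay apart for 34 of the 35 rises and 61 of the 64 falls, against 9.93% of all such loci. These loci too were called from the values that the bounds surround. The count was 153 without K1 B, 59 without K7 A, 53 without K7 C, 58 without E1 A, 58 without E1 C and 55 without E7 B, and 10 with the control libraries alone. Without K1 B 87 loci rose and 66 fell, and with layout as a term 86 rose and 98 fell, so the excess of falls among these loci depended on the fit.

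Among loci that rose, Mba06_g03590.v1.1 (chromosome 6, 3047003 to 3047658) went from 11.6 and 16.1 FPKM to 43.2, 51.0 and 47.3 FPKM (log2 fold change 1.71, SE 0.15, limma adjusted p = 0.000744). A locus of chromosome 7 without an identifier (21066419 to 21078251) went from 8.68 and 8.57 FPKM to 27.8, 23.5 and 26.8 FPKM (log2 fold change 1.49, SE 0.16, limma adjusted p = 0.00264). Both calls held under all 25 alternatives, as did that of the locus of chromosome 7 from 29429361 to 29430796 described above. Mba09_g26900.v1.1 (chromosome 9, 37384449 to 37385409) was listed at 36.9 and 97.0 FPKM on day 1 and at 169, 190.4 and 212 FPKM on day 7 (log2 fold change 1.65, SE 0.35, limma adjusted p = 0.0375), and its call held under 13 of 25 and was lost without any 1 library except K1 B. The same values did not pass in the test of regions (adjusted p = 0.052, limma). Its control level remained far under that of treated fruits, where it was listed at 13996 to 22301 FPKM. Mba01_g21380.v1.1, described as a region, was also among the rises.

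Some of the largest falls among loci were values listed at 0. Mba10_g22570.v1.1 (chromosome 10, 37907650 to 37908189) was listed at 13.4 and 25.7 FPKM on day 1 and at 0 in all 3 day 7 libraries (limma adjusted p = 9.21e-05), and in treated fruits at 21.8 and 20.2 FPKM on day 1 and at 0 in all 3 libraries of day 7. A locus of 10236 to 10250 bp that covers it was not lower on day 7, at 7.33 and 4.19 FPKM on day 1 and at 8.06, 5.202 and 5.53 FPKM on day 7, so the fall of the joined region (log2 fold change -1.57, adjusted p = 0.017, limma) came from the short locus. C4D60_Mb08t11250 (chromosome 8, 9266487 to 9267119) was listed at 11.9 and 23.2 FPKM on day 1 and at 0 in all control libraries of day 7 (limma adjusted p = 0.000145), while a locus of 6950 bp that covers it was listed at 6.65 and 8.58 FPKM on day 1 and at 2.33, 3.23 and 2.06 FPKM on day 7. In treated fruits C4D60_Mb08t11250 was listed at 3.29 and 5.14 FPKM on day 1 and at 8.96, 10.9 and 8.16 FPKM on day 7.

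A locus of chromosome 10 without an identifier (30030751 to 30033229) was listed at 14.2 and 7.54 FPKM on day 1 and at 0 in all control libraries of day 7, but in treated fruits it was at 0 in 4 of 5 libraries and its call (adjusted p = 0.0458, limma) held under 10 of 24 alternatives and was lost without any 1 control library, E1 A, E1 C or E7 C. The region around it did not pass (log2 fold change -1.09, adjusted p = 0.167, limma). A listed 0 can be a failed estimate where loci overlap, and no fold is given for these 3. The same limit applies to the 0 listed in K7 A within the region of C4D60_Mb02t04590 and C4D60_Mb02t04600. Mba07_g05690.v1.1 (chromosome 7, 4784500 to 4785216) fell from 23.7 and 55.8 FPKM to 3.79, 5.94 and 6.10 FPKM (log2 fold change -2.60, SE 0.32, limma adjusted p = 0.00457), and in treated fruits it rose from 7.37 and 8.25 FPKM to 37.8, 34.0 and 38.2 FPKM. Mba11_g23350.v1.1 (chromosome 11, 28543014 to 28543364), a short locus of 351 bp, fell from 85.5 and 76.0 FPKM to 11.1, 15.7 and 14.2 FPKM, and its call held under all 24 alternatives.

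The control change was then set beside the change over the same days in ethylene-treated fruits. They share no library, but their tests share the estimate of the spread, so a region with a small spread passes more easily in both. The overlaps below are therefore a description. In treated fruits 2409 regions rose (14.3%) and 1849 fell (11.0%). E1 A and E1 C were both paired-end while E7 A was single-end, so the day 1 treated fruits, unlike the control fruits, had no single-end library. Of the 44 regions that rose in control fruits, 23 also rose in treated fruits (52.3% of the control list and 0.955% of the treated list), 7 fell (15.9%) and 14 were not called. Of the 176 that fell in control fruits, 45 also fell in treated fruits (25.6% and 2.43%), 43 rose (24.4% and 1.78%) and 88 were not called. Of the 35 loci that rose in control fruits 16 rose and 12 fell in treated fruits, and of the 64 that fell 21 fell and 23 rose, where 25.9% of all such loci rose and 19% fell. The median change in treated fruits was 0.52 for the regions that rose in control fruits, 0.07 for those that fell and 0.11 over all tested regions.

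**Figure D4:**
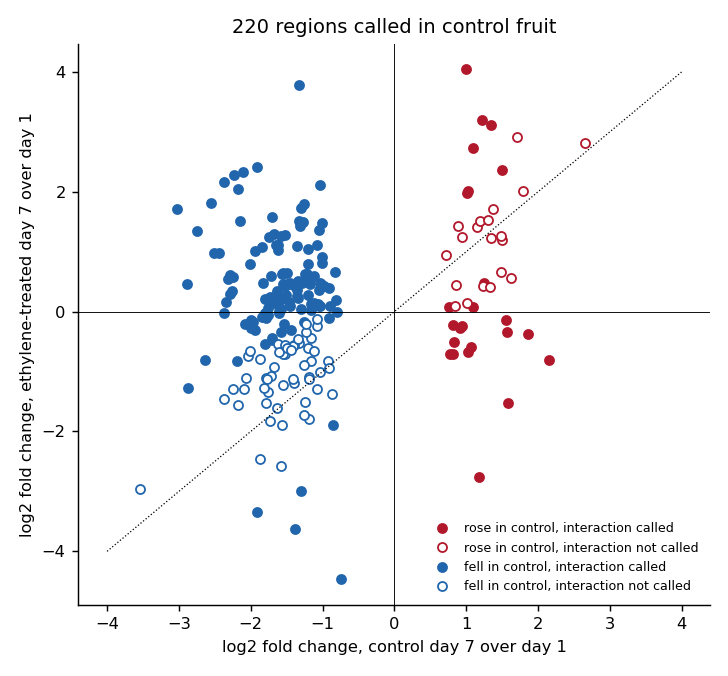
Change from day 1 to day 7 in ethylene-treated fruits (vertical axis, log2 fold change) against that in control fruits (horizontal axis) for the 220 regions called in control fruits. Filled points passed the interaction test, the dotted line marks equal change, and the regions that fell in control fruits lie both above and below 0 in treated fruits, 94 above and 82 below.

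The difference between the 2 changes was itself tested. It passed for 24 of the 44 rises and for 122 of the 176 falls, against 14.2% of all tested regions, and for 23 of the 35 loci that rose and 48 of the 64 that fell, against 31.1% of all such loci, but this test contains the control change that chose the regions, so these counts are a description. Among the 122 falls with a difference, the treated change was above 0 in 94, and among the 24 rises it was below 0 in 14. With layout as a term in the fit, 2862 of all tested regions had a difference. The count over all regions, 2390, was 1158 without E1 A and 1147 without E1 C. The widest difference among the 24 regions named for the size of their control change was that of C4D60_Mb03t01890, at 4.74 (SE 0.37, adjusted p = 9.28e-05, limma), followed by Mba05_g06740.v1.1 at 4.53 (SE 0.61, adjusted p = 0.00157) and Mba03_g17290.v1.1 at 4.37 (SE 0.40, adjusted p = 2e-04).

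**Figure D5:**
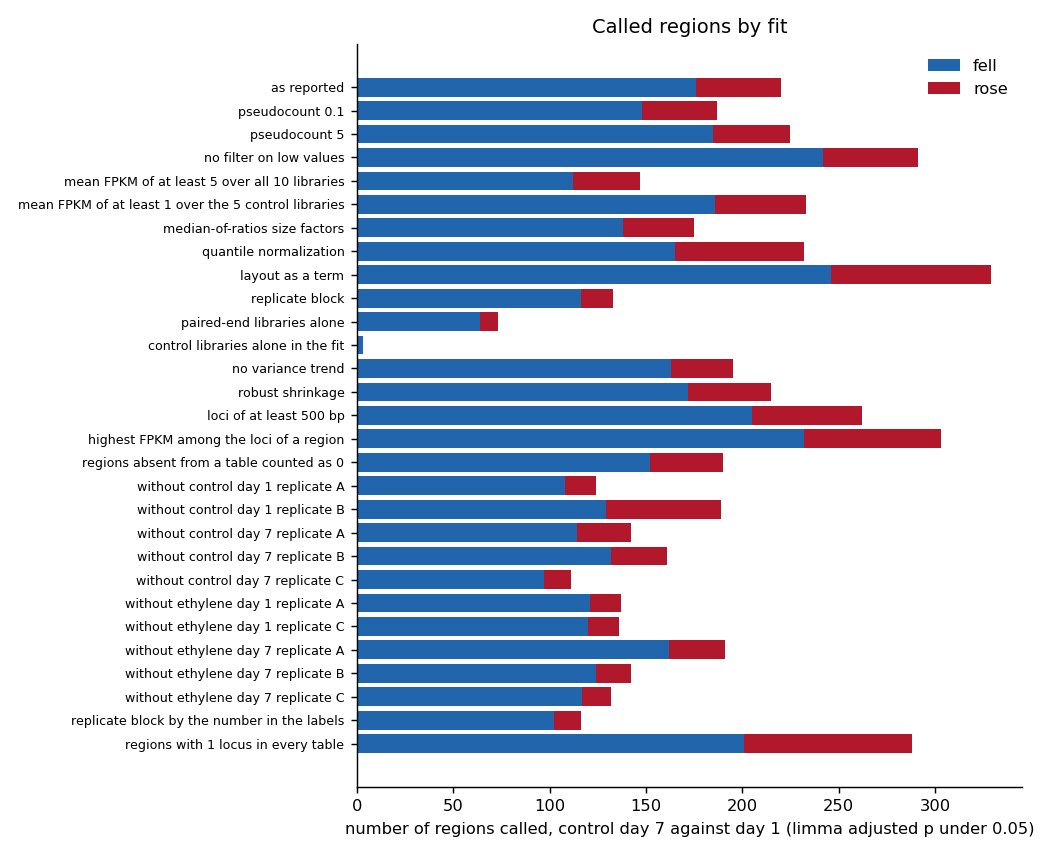
Number of regions called between day 7 and day 1 in control fruits (horizontal axis) under the reported fit and 28 alternatives (vertical axis), split into falls and rises. Falls outnumber rises under every fit shown, from 3 regions in all with the control libraries alone to 329 with layout as a term.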

How the data were processed

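RNA from pulp was sequenced on an Illumina HiSeq platform. Per the labels and the study's methods, the authors trimmed reads with Trimmomatic 0.38.0 after FastQC 0.11.8, aligned them to the DH PKW genome of the Banana Genome Hub with TopHat2 and assembled each library with Cufflinks (2.2.2.1 in the labels, another version number in the methods). How strand, multi-mapping and assembly were set is not given in the sources used here. All deposited tables hold FPKM with confidence bounds per assembled locus, in 1 table per library, and no read counts. Read totals in the study's text were not used here. The deposited FPKM in loci under 300 bp took 16.0 to 16.2% of a single-end and 95.8 to 98.0% of a paired-end control library, and loci under 300 bp were therefore left out. Control tables had 46646 to 53992 rows, and 0 to 5 rows of a table without a valid status were treated as missing.

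Loci were matched by coordinates, printed from base 1. Joined regions took in 97.4 to 98.9% of the FPKM of loci this long (27919 of 30802 regions were in all tables). Groups followed treatment and day in the labels. limma 3.58.1 in R 4.3.3 fitted 4 group means on log2(FPKM + 1) over all 10 libraries with a variance trend, two-sided, with Benjamini-Hochberg adjustment and a threshold of 0.05. Fold changes on this scale understate changes of low loci. Folds of means are ratios of mean FPKM. The fit was also run on simulated data with independent normal noise. Those data hold no layout difference and no overlapping loci, so nothing is concluded from that run here. Named regions were the 12 rises and 12 falls with the largest log2 fold change among called regions without overlap and with the same sign in both layouts, and for loci 5 each. Other regions were named after their values were seen. Comparison, lists and tests were chosen with earlier results of these data known. Alternatives covered the pseudocount, filter, scaling, layout, joining, variance model and each library left out.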

Additional observations from a re-analysis of the deposited data

Results flagged for a closer look

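Of the 24 regions and 10 loci named for the size of their control change, the following changed differently between day 1 and day 7 in ethylene-treated and control fruits. Values are the treated change minus the control change on the log2 scale, with limma adjusted p-values of the interaction. Each contains the control change by which the region was named.

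Among those of the 12 rises, the difference was -3.11 for Mba01_g21380.v1.1 (adjusted p = 0.00181), -2.95 for the region of chromosome 7 at 29429361 (0.000151), -2.23 for that of scaffold 7 at 203269 (0.00515), -1.92 for Mba01_g26750.v1.1 (0.00673) and -1.69 for Mba04_g25490.v1.1 with Mba04_g25500.v1.1 (0.00349). It was above 0 only for Mba06_g03590.v1.1 with Mba06_g03600.v1.1, at 0.88 (0.0326).

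Among those of the 12 falls, the differences were all above 0. They were 4.74 for C4D60_Mb03t01890 (adjusted p = 9.28e-05), 4.53 for Mba05_g06740.v1.1 (0.00157), 4.37 for Mba03_g17290.v1.1 (2e-04), 4.09 for Mba04_g00230.v1.1 (0.000188), 3.48 for the region of Mba08_g11240.v1.1 (0.000356), 3.42 for Mba11_g23340.v1.1 with Mba11_g23350.v1.1 (8.09e-05) and 3.36 for C4D60_Mb03t04970 (0.000681). Smaller differences were 2.35 for C4D60_Mb02t04590 with C4D60_Mb02t04600 (0.0134), 1.83 for the region of chromosome 7 at 12829156 (0.0134) and 1.59 for C4D60_Mb05t12060 (0.0133).

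Of the loci with identical coordinates, the difference was 5.14 for C4D60_Mb08t11250 (adjusted p = 4.14e-05), 4.69 for Mba07_g05690.v1.1 (0.000141), 4.50 for the locus of chromosome 10 at 30030751 (0.0164), 3.45 for Mba11_g23350.v1.1 (2.01e-05), 1.098 for Mba06_g03590.v1.1 (0.00537), -2.06 for Mba09_g26900.v1.1 (0.0139), -2.95 for the locus of chromosome 7 at 29429361 (4.14e-05) and -3.11 for Mba01_g21380.v1.1 (0.00113). In C4D60_Mb08t11250 and the locus of chromosome 10 all 3 control libraries of day 7 are listed at 0, so the size depends on the pseudocount.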

How the results depend on the processing

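The number of regions called, 220, was 147 to 329 under most alternatives that leave no library out. It was 133 with the letter of a replicate as a replicate block, 73 in the paired-end libraries alone and 3 in the control libraries alone. Leaving out 1 library gave 111 to 191. The number of loci called, 99, was 60 with the replicate block, 184 with layout as a term, 10 in the control libraries alone, and 53 to 153 with 1 library left out. With quantile normalization 65 loci rose and 78 fell, against 35 and 64. The number of regions whose change differed between treated and control fruits, 2390, was 1147 to 2353 with 1 library left out. The labels also number the replicates, and a block on those numbers, added after seeing the data, gave 116 regions and 57 loci. Only 2 pairs of control libraries share a letter or number, too few to show pairing: deviations from the day means correlated at 0.25 across regions for the A libraries, both single-end, and at 0.05 for the B libraries. The share of FPKM in the 100 most abundant regions was 0.747 percentage points higher on day 7 and changed sign to -0.894 without K1 A (range -0.894 to 2.39), and the number of regions at 1 FPKM or more was lower by 110 to 381. Over the named regions and loci, 759 values kept their direction and call under an alternative, 140 kept the direction only, and the region of scaffold 7 at 203269 turned to -0.26 with loci of at least 500 bp. The causes were not tested. The tables hold no read counts, and counting error of low loci was not separated from replicate spread.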
